A study of Mus musculus with 12 samples.

Results

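The genes described here were 9 genes with which blood vessels control clotting and the removal of clots: *Vwf*, *Mmrn2*, *Thbd*, *Procr*, *Tfpi*, *Tfpi2*, *F3*, *Plat* and *Plau*. They were chosen by name, as the rows of the deposited count table whose Ensembl identifier belongs to one of these symbols, and all 9 were found among the 35727 genes of the table. Bulk RNAseq had been performed on cultures of neonatal mouse cardiac fibroblasts, on Day 3, Day 7 and 4 weeks after infection with *Sox17* and *Erg* retroviruses or with control treatment. The 12 libraries made 6 groups of 2. The study harvested these samples to follow how cultures acquired an endothelial identity, and the hemostasis genes were read here as one component of it.

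By the methods of the study, hearts of newborn mice were pooled, digested and selected for fibroblasts carrying THY1, and cells with PECAM1 were depleted in the work that followed the first screen. The mice were of the C57BL/6J strain or carried *Tcf21*-CreERT2 with *Rosa26*-tdTomato, and which of these gave the bulk RNA is not named in the sources used here. *Sox17* and *Erg* were delivered with the pMX retroviral backbone, and the names of the control libraries carry the same backbone. All groups were grown in EGM2 medium, an endothelial growth medium. The cultures were not sorted before RNA was taken, so each library held the RNA of every cell in its culture. With bulk RNA, fewer cells of a type and less RNA per cell cannot be told apart. The labels do not say whether the libraries of a group came from separate isolations, so that p-values measure the spread between these libraries, which may be technical.

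Resting endothelium keeps blood fluid, and it also holds what is needed to stop bleeding. Thrombomodulin, encoded by *Thbd*, binds thrombin and turns it toward the activation of protein C, and the endothelial protein C receptor, encoded by *Procr*, presents protein C to that complex. Tissue factor, encoded by *F3*, starts coagulation and is kept away from blood in cells around the vessel, while tissue factor pathway inhibitor, encoded by *Tfpi*, blocks this start. Von Willebrand factor, encoded by *Vwf*, is stored in the Weibel-Palade bodies of endothelial cells and tethers platelets once it is released. Tissue and urokinase plasminogen activators, encoded by *Plat* and *Plau*, turn plasminogen into plasmin, which dissolves fibrin. Fibroblasts and mesothelial cells are known to express several of these genes too.

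In the GRCm38 build all 9 genes are protein coding by the GENCODE M21 annotation. *Thbd* (ENSMUSG00000074743, chr2:148404466-148408188, minus strand) consists of 1 exon. *Procr* (ENSMUSG00000027611, chr2:155751117-155755471, plus strand) and *Tfpi* (ENSMUSG00000027082, chr2:84432855-84476775, minus strand) are on the same chromosome. *Vwf* (ENSMUSG00000001930, chr6:125546774-125686679, plus strand) and *Tfpi2* (ENSMUSG00000029664, chr6:3962595-3988919, minus strand) are both on chromosome 6. *F3* (ENSMUSG00000028128) is at chr3:121723537-121735048 on the plus strand. *Plat* (ENSMUSG00000031538) is at chr8:22757727-22782844 on the plus strand. *Plau* (ENSMUSG00000021822, chr14:20836660-20843385, plus strand) and *Mmrn2* (ENSMUSG00000041445, chr14:34375465-34404287, plus strand) share chromosome 14. No other annotated gene overlapped an exon of any of them, and at most 0.966% of the 31-base words of a gene's transcripts, in *Vwf*, occurred in another gene.

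The genes of the infected factors belong to families that bind short DNA words, GGAA for ETS factors such as *Erg* and ACAAT for SOX factors such as *Sox17*. Upstream sequence was at hand for 4 of the 9 genes, in the RefSeq promoter table of GRCm38.p6. It is shown because 3 of these genes, *Tfpi*, *Procr* and *F3*, were lower at 4 weeks with *Sox17*-*Erg* and the remaining one, *Tfpi2*, was not. Each line gives the strand of the gene from 5′ to 3′ and stops at the first base that GENCODE M21 puts in an exon, with GGAA, ACAAT and their reverse complements TTCC and ATTGT in capitals.
Tfpi, chr2:84476776-84477009, minus strand: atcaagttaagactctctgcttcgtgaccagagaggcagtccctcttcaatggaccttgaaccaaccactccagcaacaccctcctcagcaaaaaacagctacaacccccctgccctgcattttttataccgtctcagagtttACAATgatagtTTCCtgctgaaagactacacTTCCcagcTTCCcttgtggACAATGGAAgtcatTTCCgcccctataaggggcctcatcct
Procr, chr2:155750967-155751116, plus strand: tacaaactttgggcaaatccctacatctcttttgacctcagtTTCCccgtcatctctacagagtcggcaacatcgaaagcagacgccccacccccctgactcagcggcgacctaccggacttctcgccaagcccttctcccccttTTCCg
F3, chr3:121723287-121723536, plus strand: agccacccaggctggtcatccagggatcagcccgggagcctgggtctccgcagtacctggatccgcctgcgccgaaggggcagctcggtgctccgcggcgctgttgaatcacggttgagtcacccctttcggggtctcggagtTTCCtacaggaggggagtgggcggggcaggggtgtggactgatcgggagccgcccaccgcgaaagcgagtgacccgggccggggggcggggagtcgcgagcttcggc
Tfpi2, chr6:3968377-3968625, minus strand: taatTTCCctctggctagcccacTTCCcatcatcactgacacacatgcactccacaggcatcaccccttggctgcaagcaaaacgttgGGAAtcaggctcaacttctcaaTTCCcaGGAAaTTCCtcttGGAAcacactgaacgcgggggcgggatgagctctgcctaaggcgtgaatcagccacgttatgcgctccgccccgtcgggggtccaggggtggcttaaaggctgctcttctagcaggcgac

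GGAA or its complement was counted in the 250 bases before the starts of the RefSeq table. It occurred 5 times for *Tfpi*, 3 times for *Procr*, 1 time for *F3* and 7 times for *Tfpi2*. The *Procr* line above stops within this window, at the first exonic base, and shows 2 of the 3. ACAAT or its complement occurred 2 times for *Tfpi* and 0 times for the other 3, and in *Tfpi* one of the ACAAT matches directly adjoined a GGAA. Among all 32851 windows of this length in the table, 93.4% held GGAA with a median of 3 matches, 27.7% held ACAAT and 19.7% held the longer ETS word GGAAGT, which overlaps GGAA and was found 2 times for *Tfpi* and 1 time for *Tfpi2*. *Tfpi* and *Tfpi2* have further starts in the table, and the second *Tfpi* window held GGAA 4 times and ACAAT 1 time, while the other 2 *Tfpi2* windows held GGAA 2 times and 1 time and ACAAT 0 times. These matches describe letters in these windows and were not tied to binding.

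The libraries held between 19011635 and 41240449 counts. *Sox17* was at 432 to 1036 CPM (counts scaled to library size, with TMM normalization) in the 6 *Sox17*-*Erg* libraries and at 0 to 0.416 CPM in the controls, and *Erg* was at 17.1 to 65.2 CPM against 0.0728 to 2.27 CPM. These counts do not separate viral from native transcripts. Replicate 2 of the controls on Day 3 and on Day 7 stood apart from replicate 1 in some endothelial transcripts and less so in others. *Cdh5*, which encodes VE-cadherin, was at 0.910 and 14.3 CPM in the control libraries on Day 3, at 0.230 and 8.08 on Day 7, and at 0.251 and 0.569 at 4 weeks, against 148 to 496 CPM with *Sox17*-*Erg*. *Emcn*, which encodes the endothelial sialomucin endomucin, was at 1.24 and 7.399 CPM in the controls on Day 3 and at 1.15 and 3.78 on Day 7. *Pecam1* differed less, at 12.6 and 16.7 CPM on Day 3 and at 8.95 and 12.4 on Day 7, and the sum of 12 endothelial markers was 518 and 627 CPM on Day 3 and 786 and 1076 CPM on Day 7 in these controls. Of these markers, 6 of the 11 tested were higher with *Sox17*-*Erg* at 4 weeks, where 11.9% of all tested genes were, and *Eng* was lower, while *Cldn5* did not exceed 0.462 CPM in any library.

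Across the 9 genes, the *Sox17*-*Erg* cultures were lower than control in 2 to 5 genes at each time point, and *Vwf* was the only gene that was higher, at 4 weeks. Genes were tested with the quasi-likelihood test of edgeR and called where the p adjusted by Benjamini-Hochberg over all 15506 tested genes was under 0.05. This main model did not pair libraries by replicate number. With that number as a block within each time point, *F3* was also called lower on Day 7 and *Thbd* at 4 weeks. At Day 3, 2 of the 9 genes were lower (*Procr* and *Plau*), where 5.13% of all tested genes were called lower, and 0 were higher, where 7.19% of all were. At Day 7, 4 were lower (*Procr*, *Tfpi*, *Plat* and *Plau*) against 7.93% of all genes, and 0 were higher against 9.48%. At 4 weeks, 5 were lower (*Procr*, *Tfpi*, *F3*, *Plat* and *Plau*) against 11% of all genes, and 1 was higher (*Vwf*) against 11.9%. For the counts of 0 higher genes, DESeq2 also called 0 at both time points, and an unadjusted p under 0.05 was found for 1 gene on Day 3 (*Thbd*) and 0 on Day 7 with edgeR. The median log2 fold change of the 9 genes was -0.28 on Day 3, -0.63 on Day 7 and -1.26 at 4 weeks, beside medians of 0.01, 0.01 and -0.01 over all tested genes. Without the control libraries of replicate 2 on Day 3 and Day 7, 0 genes were called lower on Day 3, 2 on Day 7 and 5 at 4 weeks, and *Vwf* was called higher on Day 7 as well as at 4 weeks.

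**Figure D1:**
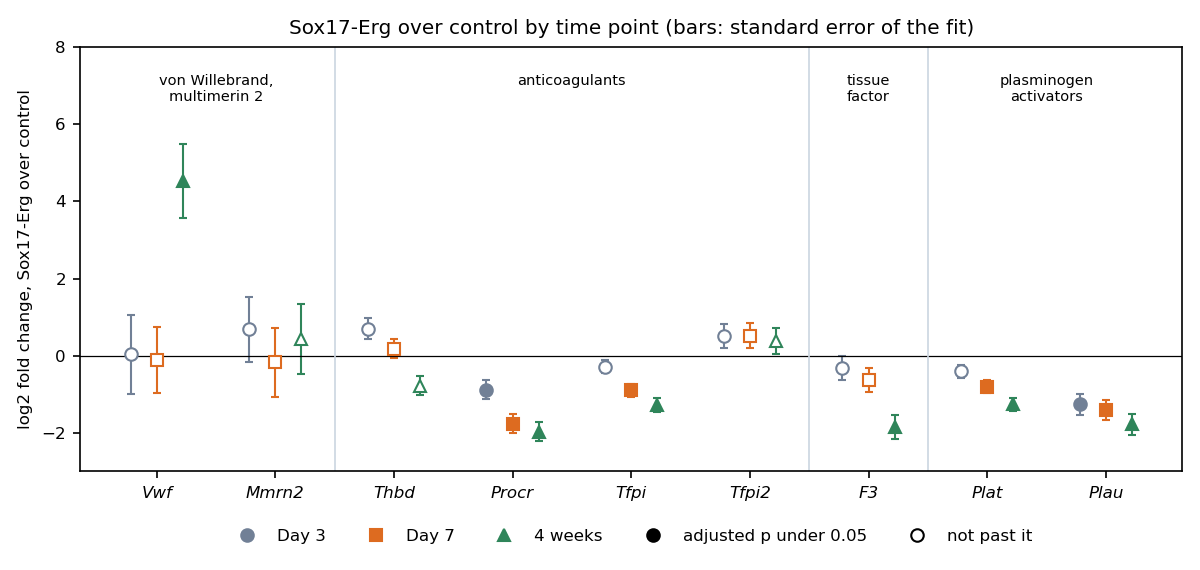
Log2 fold change of *Sox17*-*Erg* over control (vertical axis) for each of the 9 genes on Day 3, Day 7 and 4 weeks, with the standard error of the edgeR fit as bars and filled points where the adjusted p was under 0.05. *Vwf* stands at 4.53 at 4 weeks, and *Procr*, *Tfpi*, *F3*, *Plat* and *Plau* lie between -1.26 and -1.97 at that time.

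Von Willebrand factor was the gene with the largest change of the 9. *Vwf* was at 0.873 and 2.27 CPM in the control libraries on Day 3 and at 0.962 and 2.15 CPM with *Sox17*-*Erg*. At Day 7 the controls held 0.806 and 11.4 CPM and the *Sox17*-*Erg* libraries 4.96 and 6.33. At 4 weeks the controls held 2.05 and 3.01 CPM and the *Sox17*-*Erg* libraries 67.9 and 47.9. The groups overlapped on Day 3 and on Day 7, where 1 control library was the highest of the 4 and the other the lowest, and they lay far apart at 4 weeks. The log2 fold change was 0.04 ± 1.02 (SE, adjusted p = 0.99, n = 2) on Day 3, -0.11 ± 0.85 (adjusted p = 0.95) on Day 7 and 4.53 ± 0.95 (adjusted p = 0.0088) at 4 weeks, which is 23.1-fold higher. The control library with 11.4 CPM was replicate 2 of Day 7, the library with 8.08 CPM of *Cdh5*. Without it, *Vwf* had a log2 fold change of 2.79 on Day 7 (adjusted p = 0.038), and whether endothelial cells in that control culture gave its *Vwf* was not tested. With the replicate number as a block within each time point, the Day 7 value was 0.53 (adjusted p = 0.62). At 4 weeks the call was lost without control replicate 1 of that time, at a log2 fold change of 4.26 (adjusted p = 0.074).

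**Figure D2:**
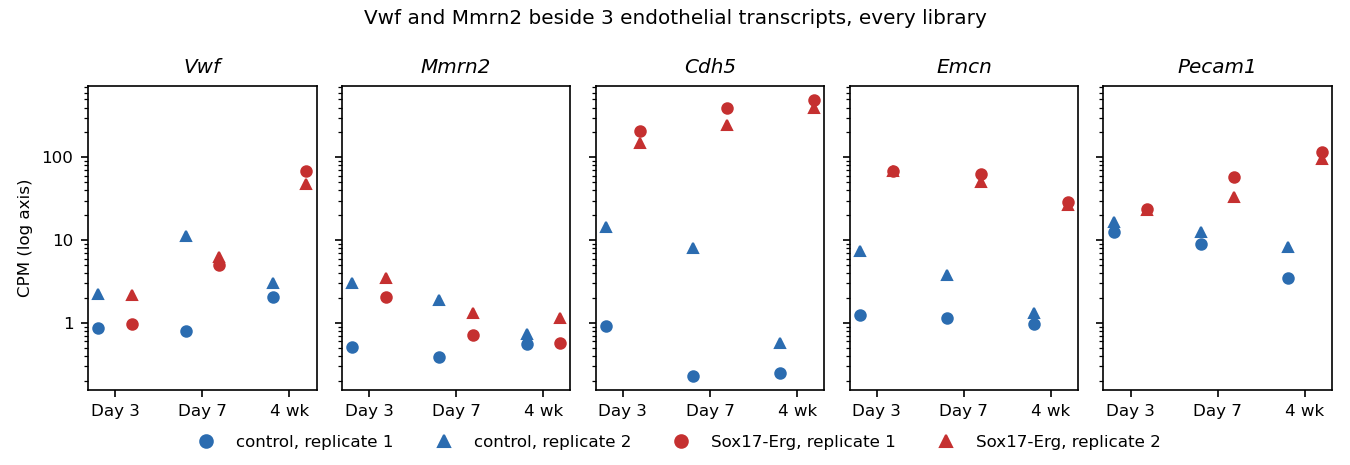
CPM on a logarithmic axis of *Vwf*, *Mmrn2* and the endothelial transcripts *Cdh5*, *Emcn* and *Pecam1* in each of the 12 libraries, with circles for replicate 1 and triangles for replicate 2. Control replicate 2 on Day 7 holds 11.4 CPM of *Vwf* and 8.08 CPM of *Cdh5*, and control replicate 1 of that day 0.806 and 0.230 CPM.

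Within the *Sox17*-*Erg* cultures, *Vwf* rose by 5.19 ± 1.01 on the log2 scale from Day 3 to 4 weeks, 36.6-fold (adjusted p = 0.0060), and in the controls the difference was 0.70 ± 0.96 (adjusted p = 0.63). The plot of endothelial transcripts shows that *Vwf* was at the level of the controls on Day 3, when *Cdh5* and *Emcn* in the same *Sox17*-*Erg* libraries were already above every control library. *Cdh5* was at 208 and 148 CPM at that time and *Emcn* at 67.8 and 67.9. *Pecam1*, which encodes the adhesion molecule by which cells had been depleted, was at 23.6 and 23.0 CPM on Day 3 and at 117 and 94.6 CPM at 4 weeks. Markers of megakaryocytes and platelets, the other cells that make *Vwf*, summed to 2.34 to 12.7 CPM in the 12 libraries, and *Ppbp* was at 0 in 7 of them.

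The other gene of this group, *Mmrn2*, encodes multimerin 2, a glycoprotein that endothelial cells deposit in their matrix, and it was scarce throughout. The controls held 0.509 and 3.01 CPM on Day 3, 0.384 and 1.89 on Day 7, and 0.551 and 0.732 at 4 weeks. With *Sox17*-*Erg* it was at 2.07 and 3.49 CPM, at 0.717 and 1.32, and at 0.566 and 1.15. The groups overlapped at each time point, and the control libraries highest in *Cdh5*, replicate 2 of Day 3 and of Day 7, were also those highest in *Mmrn2*, and their part in these values was not tested. The log2 fold change was 0.68 ± 0.85 on Day 3, -0.17 ± 0.89 on Day 7 and 0.43 ± 0.91 at 4 weeks, with adjusted p from 0.64 to 0.92. These values rest on 10 to 81 counts per library and on 2 libraries per group, so differences larger than these errors could also have gone uncalled.

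Of the anticoagulant genes, *Procr* and *Tfpi* were called lower with *Sox17*-*Erg*, and *Thbd* and *Tfpi2* were not called by the main model. A difference between these genes was not tested. *Procr* was at 12.8 and 12.99 CPM in the controls on Day 3, 12.8 and 14.0 on Day 7, and 17.7 and 12.1 at 4 weeks. With *Sox17*-*Erg* it was at 6.58 and 7.45 CPM, at 3.14 and 4.83, and at 4.14 and 3.48. Every *Sox17*-*Erg* library lay below every control library at all 3 time points. On the log2 scale the difference was -0.88 ± 0.24 on Day 3 (adjusted p = 0.045), -1.76 ± 0.25 on Day 7 (adjusted p = 0.0018) and -1.97 ± 0.25 at 4 weeks (adjusted p = 0.00067), which is 3.91-fold lower. The Day 3 call lay close to the threshold and was lost when the replicate number was made a block for all libraries (adjusted p = 0.051) and without any one of the 4 libraries of Day 3, either control library of Day 7 or either *Sox17*-*Erg* library of 4 weeks, with adjusted p up to 0.25, while the calls on Day 7 and 4 weeks were kept in each alternative that was run.

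*Tfpi* was among the most abundant of the 9 genes. The controls held 98.0 and 100.1 CPM on Day 3, 122 and 154 on Day 7, and 184 and 165 at 4 weeks, and the *Sox17*-*Erg* libraries held 72.2 and 90.6, 64.4 and 83.5, and 77.9 and 65.6 CPM. The groups were apart at each time point. Its log2 fold change was -0.28 ± 0.18 on Day 3 (adjusted p = 0.31), -0.90 ± 0.18 on Day 7 (adjusted p = 0.0087) and -1.28 ± 0.18 at 4 weeks (adjusted p = 0.0011), which is 2.43-fold lower. From Day 3 to 4 weeks *Tfpi* rose in the controls by 0.82 ± 0.18 on the log2 scale (adjusted p = 0.010, lost in 4 of 19 alternatives) and differed by -0.18 ± 0.18 in the *Sox17*-*Erg* cultures (adjusted p = 0.47). At Day 7 the call was lost without control replicate 2 of that time, at -0.73 (adjusted p = 0.061), without *Sox17*-*Erg* replicate 1, at -0.72 (adjusted p = 0.086), and with only the libraries of that day, at -0.92 (adjusted p = 0.061).

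*Thbd* behaved differently, since its level rose in both treatments. The controls went from 27.7 and 23.3 CPM on Day 3 to 94.1 and 65.5 on Day 7 and 156 and 89.3 at 4 weeks, and the *Sox17*-*Erg* libraries from 39.5 and 43.6 to 82.3 and 99.2 and then 76.0 and 67.6. The *Sox17*-*Erg* libraries were above the controls on Day 3, overlapped with them on Day 7 and were below them at 4 weeks. None of these differences passed the threshold of edgeR, with log2 fold changes of 0.70 ± 0.26 (adjusted p = 0.11), 0.18 ± 0.26 (adjusted p = 0.66) and -0.77 ± 0.26 (adjusted p = 0.059). The rise from Day 3 to 4 weeks was called in both, at 2.27 ± 0.27 in the controls (adjusted p = 0.00084, 4.81-fold) and 0.79 ± 0.26 with *Sox17*-*Erg* (adjusted p = 0.046, lost in 7 of 19 alternatives, 1.73-fold). With the replicate number as a block within each time point, *Thbd* was called lower at 4 weeks, at -0.72 (adjusted p = 0.048). *Thbd* was also called lower with the block over all libraries, at -0.75 (adjusted p = 0.049). The same was found with no low-count filter, where *Thbd* was at -0.78 (adjusted p = 0.0018). DESeq2 called it as well, at -0.76 (adjusted p = 0.025), and so did edgeR without control replicate 2 of 4 weeks, at -1.11 (adjusted p = 0.014), or without control replicate 1 of Day 7, at -0.77 (adjusted p = 0.049).

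*Tfpi2* encodes a matrix-associated relative of *Tfpi* that inhibits plasmin and other proteases, and it fell over time in both treatments. It went from 12.9 and 13.1 CPM to 13.4 and 6.15 and then 2.83 and 3.90 in the controls, and from 18.2 and 19.0 to 16.2 and 11.6 and then 4.11 and 4.63 with *Sox17*-*Erg*. The *Sox17*-*Erg* libraries were above the controls on Day 3 and at 4 weeks, where the distance was small, and overlapped with them on Day 7. The log2 fold changes were 0.51 ± 0.32, 0.52 ± 0.32 and 0.38 ± 0.34, with adjusted p of 0.32, 0.31 and 0.47. Without control replicate 1 of Day 7, *Tfpi2* was called higher on Day 7, at 1.16 (adjusted p = 0.029), and with only the libraries of Day 3 it was called higher on that day, at 0.48 (adjusted p = 0.047). From Day 3 to 4 weeks it fell by 1.96 on the log2 scale in the controls (SE 0.34, adjusted p = 0.0042) and by 2.09 with *Sox17*-*Erg* (SE 0.34, adjusted p = 0.0029).

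**Figure D3:**
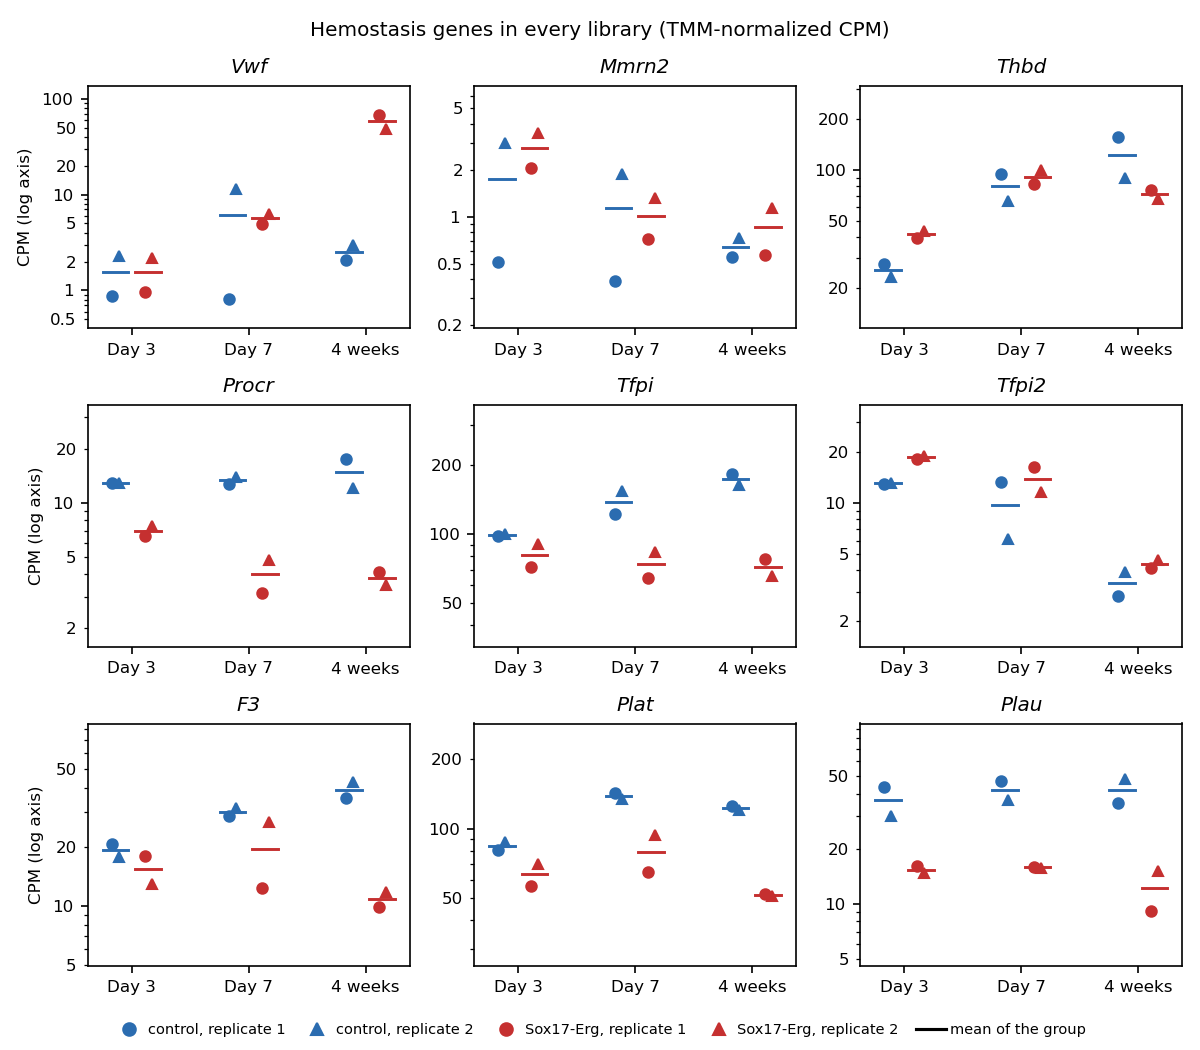
CPM on logarithmic axes of each of the 9 genes in all 12 libraries on Day 3, Day 7 and 4 weeks, with control in blue, *Sox17*-*Erg* in red, circles for replicate 1, triangles for replicate 2 and a line at the mean of each group. *Vwf* separates at 4 weeks (57.9 against 2.53 CPM on average), and *Procr*, *Plau*, *Tfpi* and *Plat* do so from Day 3 on. *Tfpi2* falls in both groups, from 13.02 to 3.37 CPM in the controls and from 18.6 to 4.37 CPM with *Sox17*-*Erg*.

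*F3*, the only procoagulant gene of the 9, was lower with *Sox17*-*Erg* at 4 weeks. The controls held 20.7 and 17.8 CPM on Day 3, 28.7 and 31.4 on Day 7, and 35.6 and 42.5 at 4 weeks, and the *Sox17*-*Erg* libraries held 18.0 and 12.97, 12.3 and 26.7, and 9.87 and 11.8 CPM. The groups overlapped on Day 3, and the 2 *Sox17*-*Erg* libraries of Day 7 lay far from each other. For *F3* the log2 fold change was -0.32 ± 0.31 (adjusted p = 0.55), -0.63 ± 0.31 (adjusted p = 0.20) and -1.85 ± 0.32 (adjusted p = 0.0035), the last being 3.61-fold lower. With the replicate number as a block within each time point, *F3* was also called lower on Day 7, at -0.72 (adjusted p = 0.048), and so it was without *Sox17*-*Erg* replicate 2 of that day, at -1.32 (adjusted p = 0.0081). From Day 3 to 4 weeks *F3* rose by 1.02 ± 0.31 on the log2 scale in the controls (adjusted p = 0.039, lost in 8 of 19 alternatives) and differed by -0.51 ± 0.32 with *Sox17*-*Erg* (adjusted p = 0.25).

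Both plasminogen activator genes were lower with *Sox17*-*Erg*. *Plau* was at 43.3 and 30.2 CPM in the controls on Day 3, 46.7 and 36.8 on Day 7, and 35.4 and 48.3 at 4 weeks, against 16.0 and 14.7, 15.8 and 15.7, and 9.17 and 15.2 CPM. The groups did not overlap at any time point. The log2 fold change was -1.26 ± 0.27 (adjusted p = 0.019), -1.40 ± 0.27 (adjusted p = 0.0077) and -1.78 ± 0.27 (adjusted p = 0.0018), which is 2.40-fold, 2.65-fold and 3.44-fold lower. The Day 3 call of *Plau* was lost without control replicate 1 of that time, at -0.98 (adjusted p = 0.12), or without either *Sox17*-*Erg* library of Day 3 (adjusted p up to 0.13), and the Day 7 call without *Sox17*-*Erg* replicate 1, at -1.41 (adjusted p = 0.062).

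*Plat* was at 80.6 and 87.2 CPM in the controls on Day 3, 143 and 135 on Day 7, and 125 and 121 at 4 weeks, against 56.4 and 70.3, 65.2 and 93.5, and 52.0 and 50.9 CPM with *Sox17*-*Erg*. The *Sox17*-*Erg* libraries were below the controls each time. For *Plat* the log2 fold change was -0.40 ± 0.17 (adjusted p = 0.14), -0.81 ± 0.17 (adjusted p = 0.012) and -1.26 ± 0.17 (adjusted p = 0.00098), the last being 2.39-fold lower. At Day 7 the call was lost without *Sox17*-*Erg* replicate 1, at -0.57 (adjusted p = 0.076), and with only the libraries of that day, at -0.82 (adjusted p = 0.084). *Plat* rose by 0.55 ± 0.17 on the log2 scale from Day 3 to 4 weeks in the controls (adjusted p = 0.037, lost in 7 of 19 alternatives), and differed by -0.30 ± 0.17 with *Sox17*-*Erg* (adjusted p = 0.21).

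Over culture time, 4 of the 9 genes were called higher at 4 weeks than on Day 3 in the controls (*Thbd*, *Tfpi*, *F3* and *Plat*), where 13.9% of all tested genes were, and 1 was lower (*Tfpi2*), where 12.6% were. With *Sox17*-*Erg*, 2 were higher (*Vwf* and *Thbd*) against 15.1% of all genes and 2 lower (*Procr* and *Tfpi2*) against 15.6%. *Tfpi*, *F3* and *Plat*, which rose in the controls, had negative changes over time with *Sox17*-*Erg* that did not pass the threshold. *Procr* fell by 0.88 with *Sox17*-*Erg* (SE 0.25, adjusted p = 0.025) and differed by 0.21 ± 0.23 in the controls (adjusted p = 0.55). In the controls the rise of *F3* was lost in 8 of 19 alternatives, among them without any one control library of Day 3 or 4 weeks (log2 fold change 0.90 to 1.15). That of *Plat* was lost in 7, among them the same libraries left out (adjusted p up to 0.18), and that of *Tfpi* in 4, among them without either control library of Day 3 (adjusted p up to 0.067). Without control replicate 1 of Day 3, 1 of the 4 genes was still called higher (*Thbd*). With *Sox17*-*Erg*, the call of *Vwf* was lost without *Sox17*-*Erg* replicate 1 of Day 3, at 4.80 (adjusted p = 0.052), and those of *Thbd* and *Procr* were lost in 7 and 6 alternatives, among them without either *Sox17*-*Erg* library of Day 3 or 4 weeks, with adjusted p up to 0.17 and 0.12.

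Whether the effect of *Sox17*-*Erg* itself differed between time points was tested as an interaction. Of the 9 genes, 0 were called between 4 weeks and Day 3, where 3.21% of all tested genes were, 0 between Day 7 and Day 3 against 0.0838%, and 0 between 4 weeks and Day 7 against 0.0387%. The edgeR test gave an unadjusted p under 0.05 for 6 genes between 4 weeks and Day 3, for 2 between Day 7 and Day 3 and for 3 between 4 weeks and Day 7, and DESeq2 called 5, 0 and 0. Between 4 weeks and Day 3 the difference in effect was 4.49 ± 1.36 for *Vwf* (adjusted p = 0.13), -1.54 ± 0.44 for *F3* (adjusted p = 0.11), -1.48 ± 0.37 for *Thbd* (adjusted p = 0.0685), -0.999 ± 0.25 for *Tfpi* (adjusted p = 0.0685) and -0.86 ± 0.24 for *Plat* (adjusted p = 0.097). With the replicate number as a block within each time point, 3 of these were called, *F3* (adjusted p = 0.035), *Tfpi* (adjusted p = 0.012) and *Thbd* (adjusted p = 0.047).

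The order of levels between genes was taken from CPM per kilobase of annotated exons, a scale per length. In the controls at 4 weeks *Thbd* (32.9 ± 12.6, SD, n = 2) and *Tfpi* (31.9 ± 2.50) were highest and did not differ beyond their spread, followed by *Plat* (19.7 ± 0.510), *Plau* (17.7 ± 3.85) and *F3* (15.5 ± 1.93), of which neighbours again overlapped. *Procr* (7.33 ± 1.93) and *Tfpi2* (1.93 ± 0.434) came next, and *Mmrn2* (0.161 ± 0.0322) and *Vwf* (0.158 ± 0.0420) were lowest and overlapped in their spread. Divided by the length of the longest transcript, the controls held 0.287 of *Vwf* and 0.161 of *Mmrn2*. By that length they also held 44.0 of *Tfpi* and 32.9 of *Thbd*, and 20.9 of *F3* and 17.9 of *Plau*. These orders thus depended on the length used. With *Sox17*-*Erg* at 4 weeks the order began with *Thbd* (19.3 ± 1.59), *Tfpi* (13.1 ± 1.59) and *Plat* (8.25 ± 0.121). By the longest transcript *Tfpi* was at 18.1 there, close to *Thbd* at 19.3. *Plau* (5.14 ± 1.80), *F3* (4.28 ± 0.533) and *Vwf* (3.61 ± 0.880) followed and overlapped in their spread. Below them were *Tfpi2* (2.50 ± 0.212), *Procr* (1.88 ± 0.230) and *Mmrn2* (0.216 ± 0.104). *Vwf* thus stood near the plasminogen activator *Plau* in the reprogrammed cultures, and divided by the length of the longest transcript instead it was at 6.56 CPM per kilobase, above *Plau* at 5.20 and *F3* at 5.78.

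Markers of other cell types differed between treatments for some of the lists and not for others. Markers of epicardium and mesothelium were lower at 4 weeks for 6 of 6 genes, where 11% of all tested genes were lower and 11.9% higher, and their sum ran from 295 to 1449 CPM in the controls and from 130 to 321 CPM with *Sox17*-*Erg*, with none of the 6 at 0 in any library. The mesothelial gene *Msln* was at 995 and 649 CPM in the controls at 4 weeks and at 189 and 123 CPM with *Sox17*-*Erg*. Of 8 fibroblast markers, 4 were lower at 4 weeks (*Dcn*, *Lum*, *Pdgfra* and *Tcf21*) and *Postn* was higher, with sums of 12479 to 35777 CPM in the controls and 10090 to 39098 CPM with *Sox17*-*Erg*. Of 7 smooth muscle and pericyte markers, 4 were higher at 4 weeks, with sums of 1176 to 4059 and 2490 to 5018 CPM, and of 6 cardiomyocyte markers 4 were lower, with sums of 626 to 1524 and 330 to 680 CPM. On Day 7, 4 of the 6 epicardial and mesothelial markers were lower, 5 of the 7 smooth muscle and pericyte markers were higher, 3 of the 8 fibroblast markers were lower and 1 was higher, and 2 of the 6 cardiomyocyte markers were lower, where 9.48% of all genes were higher and 7.93% lower. At Day 3, 1 gene of each of these 4 lists was called, higher for smooth muscle and pericyte and lower for the others, where 7.19% of all were higher and 5.13% lower. None of 8 macrophage markers was called at any of the 3 time points (sums of 44.2 to 1252 and 64.7 to 433 CPM), nor was any of the 3 tested platelet markers, and of 4 lymphatic markers *Prox1* was higher at each time and *Pdpn* was lower on Day 3 and Day 7. The summed endothelial markers were at 518 to 1883 CPM in the controls and at 737 to 1464 CPM with *Sox17*-*Erg*. The part of these cells in the lower levels of *Procr*, *Tfpi*, *F3*, *Plat* and *Plau* was not tested.

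Around these genes, the wider pathway was followed in lists of genes with known roles. Of 10 tested anticoagulant genes, which include 4 of the 9, 2 were higher at 4 weeks against 11.9% of all tested genes and 3 lower against 11%, with a median log2 fold change of 0.06. *Hs3st1*, whose enzyme builds the heparan sulfate that antithrombin binds, was at 2.08 and 2.24 CPM in the controls and at 5.98 and 7.15 CPM with *Sox17*-*Erg* (log2 fold change 1.60 ± 0.29, adjusted p = 0.0042). From Day 3 to 4 weeks it was lower in the controls (-0.99 ± 0.29, adjusted p = 0.034) and differed by 0.27 ± 0.28 with *Sox17*-*Erg* (adjusted p = 0.501). *Serpine2*, an inhibitor of thrombin and of plasminogen activators, was at 110 and 87.5 against 205 and 171 CPM (0.93 ± 0.16, adjusted p = 0.0034). *Serpind1*, which encodes heparin cofactor II, was at 1.80 and 0.935 against 0.177 and 0.111 CPM (-3.22 ± 0.57, adjusted p = 0.0038), from 3 to 72 counts per library. At Day 3 this list had 0 higher and 1 lower gene, which was *Procr*, against 7.19% and 5.13% of all genes, and on Day 7 it had 1 higher and 3 lower against 9.48% and 7.93%.

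Of 8 tested procoagulant genes, 0 were higher and 3 lower at 4 weeks against 11.9% and 11% of all genes, with a median of -0.41, and on Day 7 it was 0 higher and 2 lower against 9.48% and 7.93%. Beside *F3*, the lower ones were *Mcfd2*, which helps factors V and VIII leave the endoplasmic reticulum, at -0.61 ± 0.12 (adjusted p = 0.0060), and *Vkorc1*, which recycles vitamin K, at -0.79 ± 0.20 (adjusted p = 0.023). Factor V itself, encoded by *F5*, was lower on Day 7, at 1.15 and 0.683 CPM in the controls and 0.221 and 0.176 CPM with *Sox17*-*Erg* (-2.17 ± 0.61, adjusted p = 0.038). At Day 3 none of these 8 genes was called in either direction with edgeR, and none had an unadjusted p under 0.05.

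Fibrinolysis genes were mixed. Of 9 tested, 2 were higher and 3 lower at 4 weeks against 11.9% and 11% of all genes, with a median of -0.35. On Day 7, 1 was higher and 4 lower against 9.48% and 7.93%, and on Day 3, 0 were higher and 2 lower against 7.19% and 5.13%. *Plaur*, which encodes the urokinase receptor, was at 2.63 and 3.58 CPM in the controls and at 8.92 and 8.30 CPM with *Sox17*-*Erg* at 4 weeks (1.48 ± 0.45, adjusted p = 0.043). From Day 3 to 4 weeks *Plaur* was lower in the controls (-1.73 ± 0.45, adjusted p = 0.022) and differed by -0.76 ± 0.43 with *Sox17*-*Erg* (adjusted p = 0.22). *Plgrkt*, which encodes a plasminogen receptor, was lower on Day 3, at 24.0 and 27.8 against 17.8 and 19.6 CPM (-0.47 ± 0.11, adjusted p = 0.030), and on Day 7, at -0.43 ± 0.11 (adjusted p = 0.030). *Serpinb2*, which encodes an inhibitor of urokinase, had 39 and 172 counts in the controls at 4 weeks and 0 counts in both *Sox17*-*Erg* libraries, where a count of 0 allows up to 3 per library.

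Of 12 tested genes of *Vwf* storage and handling, *Vwf* included, 3 were higher with *Sox17*-*Erg* at 4 weeks against 11.9% of all genes and 0 were lower against 11%, with a median of 0.11. Beside *Vwf* the higher ones were *Angpt2*, an angiopoietin stored with it in Weibel-Palade bodies, at 24.0 and 16.5 against 132 and 103 CPM (2.53 ± 0.34, adjusted p = 0.00095), and *Sytl4*, a regulator of the release of these bodies, at 3.83 and 4.15 against 7.504 and 12.7 CPM (1.34 ± 0.26, adjusted p = 0.0062). From Day 3 to 4 weeks *Sytl4* was lower in the controls (-0.86 ± 0.26, adjusted p = 0.039) and differed by 0.61 ± 0.26 with *Sox17*-*Erg* (adjusted p = 0.10). *Selp*, whose P-selectin shares the same bodies, was lower on Day 7, at 41.2 and 25.2 against 4.85 and 8.74 CPM (-2.30 ± 0.52, adjusted p = 0.017), when the list had 1 higher gene against 9.48% of all and 2 lower against 7.93%. At Day 3 only *Myrip*, a Rab27a partner in granule movement, was called, and it was lower, with 18 and 8 counts against 0 and 2, where 5.13% of all genes were lower and 7.19% higher.

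Of the 3 receptors of multimerin 2, *Cd93* was higher on Day 7 and at 4 weeks, against 9.48% and 11.9% of all genes. It was at 1.35 and 5.90 CPM in the controls at 4 weeks and at 57.2 and 51.2 CPM with *Sox17*-*Erg* (3.95 ± 0.59, adjusted p = 0.0017), while the ligand gene *Mmrn2* stayed at or under 1.15 CPM in these libraries. On Day 3 *Cd93* was at 14.7 and 17.7 against 53.5 and 35.8 CPM, and from then to 4 weeks it was lower in the controls (-2.21 ± 0.57, adjusted p = 0.021) and differed by 0.28 ± 0.51 with *Sox17*-*Erg* (adjusted p = 0.72). *Clec14a* and *Cd248*, the other 2 receptors, had log2 fold changes of -0.49 ± 0.25 (adjusted p = 0.19) and 0.63 ± 0.25 (adjusted p = 0.11) at 4 weeks and were not called on Day 3 or Day 7. Of the 2 tested protease-activated receptors, which sense thrombin and related proteases, *F2rl1* was higher at 4 weeks, at 0.326 and 0.732 against 4.11 and 4.37 CPM (3.04 ± 0.42, adjusted p = 0.0012), against 11.9% of all genes, and both *F2r* and *F2rl1* were higher on Day 7 against 9.48%.

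Genes by which endothelium restrains platelets differed in both directions. *Entpd1*, whose product CD39 degrades ATP and ADP, was at 1.30 and 2.03 CPM in the controls and at 43.9 and 35.8 CPM with *Sox17*-*Erg* at 4 weeks (4.60 ± 0.39, adjusted p = 8.9e-05). *Nt5e*, whose product CD73 makes adenosine from AMP in the next step, was at 465 and 334 against 38.8 and 29.96 CPM (-3.54 ± 0.64, adjusted p = 0.0044). *Ptgs1* and *Ptgis*, which encode cyclooxygenase 1 and prostacyclin synthase, were lower at each time point, at -2.87 ± 0.34 (adjusted p = 0.00051) and -0.92 ± 0.11 (adjusted p = 0.00065) at 4 weeks. This list had 1 higher and 3 lower of 5 genes on Day 7, against 9.48% and 7.93% of all genes, and again at 4 weeks, against 11.9% and 11%, and it had 0 higher and 3 lower on Day 3, against 7.19% and 5.13%.

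Genes whose log2 CPM ran most like each of the 9 across the 12 libraries were listed by Pearson correlation, as a description without a test, since libraries of a group share their treatment and time. The lists depended on the measure, since by Spearman rank correlation 8 of the 27 genes remained among the 3 nearest, and for *Vwf* all 3 were other genes (*Tc2n*, *AC116841.1* and *Gm34144*). The 3 nearest to *Vwf* were *Gpbp1l1* (0.95), *Arrdc4* (0.94) and *Jmjd1c* (0.94), and those nearest to *Tfpi* were *Plekha2* (0.98), *Ppp2r5a* (0.97) and *Serpind1* (0.97), the last of which is a gene of the anticoagulant list. *Tfpi2* ran most like *Rrm2*, *Asf1b* and *Clspn* (each 0.98), genes of DNA replication, and *F3* and *Plat* shared *Tchh* among their nearest (0.96 and 0.97). *Procr* was nearest to *Chst1* (0.97), *Gm45551* (0.96) and *Gm9973* (0.96), *Plau* to *Tnfaip8* (0.97), *Megf6* (0.97) and *Zfp395* (0.96), and *Thbd* to *Zxda* (0.94), *Tmem59* (0.93) and *Rnf44* (0.92). *Mmrn2* had the lowest likeness, with *Tpm3-rs7* (0.88), *4932414N04Rik* (0.85) and *Qpct* (0.84).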

How the data were processed

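Bulk RNA of 12 cultures had been sequenced by the authors as stranded, paired-end mRNA libraries, made into reads with bcl2fastq 2.20.0, trimmed with BBDuk and quantified with Salmon, whose version is not given in the sources used here, on the mouse build mm10. The deposited values are estimated counts per Ensembl gene that the authors had rounded to whole numbers. The authors compared groups with DESeq2. The columns of the 12 libraries were matched to samples by name. The replicate numbers are those of the sample titles, while the column names carry R2 for the first replicate and R3 for the second.

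Of 35727 genes, 25680 had a count and 35422 matched the GENCODE M21 annotation, from which positions and lengths were taken. Genes were kept at a minimum count of 10 in edgeR's filterByExpr (minimum total 15), which left 15506, all 9 genes described here among them. CPM were normalized by TMM. One quasi-likelihood model over the 6 groups (edgeR 4.0.16, R 4.3.3, limma 3.58.1, 6 residual degrees of freedom) gave each contrast, with Benjamini-Hochberg adjustment over all tested genes and calls at 0.05. The standard error was the log2 fold change over the square root of F. Likeness used log2 CPM with a prior count of 2. Library totals of 19011635 to 41240449 counts set the counting precision, and the spread between 2 libraries set the errors.

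All 9 genes were named with values in every library, and beyond them up to 5 called genes of each pathway list with the largest changes and the 3 genes most like each. The genes and lists were chosen with earlier results of these data known. One listed gene is not reported here. Same-numbered libraries deviated together across treatments at each time point (correlation over genes of their deviations from the group mean 0.186 at Day 3, 0.301 at Day 7 and 0.171 at 4 weeks), so the numbers were taken to pair control and *Sox17*-*Erg* libraries within a time point. Alternatives were DESeq2 1.42.0, median-ratio size factors, no low-count filter, a minimum count of 30, the replicate block, only the libraries of 1 time point, leaving out each library, and, chosen after seeing the data, crossed replicate numbers and leaving out control replicate 2 of Day 3 and Day 7. The main model held no term for the pairing by replicate number, so its counts of called genes are unpaired ones. The block within each time point used the pairing and called *F3* lower on Day 7 and *Thbd* lower at 4 weeks as well. It also called 3 of the 9 genes in the interaction of 4 weeks and Day 3, where the main model called 0. Tables were handled with Python 3.11.15, pandas 2.3.3 and numpy 2.4.6.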

Additional observations from a re-analysis of the deposited data

Results flagged for a closer look

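In 2 genes of the wider lists the effect of *Sox17*-*Erg* differed between 4 weeks and Day 3 by a test of that difference, the interaction term of the edgeR model with Benjamini-Hochberg adjustment over all tested genes. They were 1 of the 5 tested genes of the platelet restraint list and 1 of the 2 tested protease-activated receptors, with 0 called in the other 5 hemostasis lists, and 3.21% of all tested genes were called in this test. The effect on *Entpd1* was larger at 4 weeks by 3.83 on the log2 scale (SE 0.51, adjusted p = 0.0065). Its control libraries held 6.04 and 5.83 CPM at Day 3 and 1.30 and 2.03 at 4 weeks, and the *Sox17*-*Erg* libraries held 11.6 and 8.62 CPM and then 43.9 and 35.8. The effect on *F2rl1* was larger by 2.88 (SE 0.58, adjusted p = 0.033), with 1.24 and 1.66 CPM going to 0.326 and 0.732 in the controls and 1.32 and 1.90 going to 4.11 and 4.37 with *Sox17*-*Erg*. In both genes the controls fell while the *Sox17*-*Erg* cultures rose, and both time changes were called in both treatments.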

How the results depend on the processing

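The lower level of *Procr*, *Tfpi*, *F3*, *Plat* and *Plau* at 4 weeks was called in all 21 alternatives, with log2 fold changes of -2.20 to -1.67, -1.42 to -1.19, -2.01 to -1.71, -1.28 to -1.23 and -2.21 to -1.47, and *Vwf* at 4 weeks ranged from 4.24 to 4.82. Calls at Day 3 and Day 7 and over time were less stable, and where no cause is shown, it was not tested. At Day 3, 1 gene was called higher with no low-count filter (*Thbd*) and 2 with only the libraries of that time point (*Tfpi2* and *Thbd*). Of the 2 genes lower at Day 3, 1 was called with the replicate block over all libraries (*Plau*) and 0 without control replicate 2 of Day 3 and Day 7. The same 2 libraries left out gave 1 higher gene at Day 7 (*Vwf*), 2 lower at Day 7, 1 higher over time in the controls (*Thbd*) and 1 lower over time with *Sox17*-*Erg* (*Tfpi2*), and only the libraries of Day 7 gave 2 lower genes (*Plau* and *Procr*). For the interaction of 4 weeks and Day 7, 2 genes were called with no filter (*F3* and *Vwf*). For that of 4 weeks and Day 3, DESeq2 called 5, no filter 5 and the replicate block within each time point 3. The replicate block changed no call of the 9 genes other than those given here, in the report, and that of *Mmrn2*, which was lower at 4 weeks than at Day 3 with *Sox17*-*Erg* under the block over all libraries, at -1.75 (adjusted p = 0.044). With the numbers crossed at 4 weeks, 1 gene was called in the interaction of 4 weeks and Day 3.

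Differences near 0 changed sign. *Vwf* at Day 3 was -0.025 with DESeq2, -0.0099 at a minimum count of 30 and -0.017 with only the libraries of that day, and at Day 7 it was 0.23 with the block over all libraries, 0.53 with the block within time points, 0.23 with crossed numbers and 2.78 without control replicate 2 of Day 3 and Day 7. *Mmrn2* at Day 7 was 0.062, 0.094 and 1.37 with the block over all libraries, the block within time points and those 2 libraries left out. Without them *Thbd* at Day 7 was -0.063, and the time changes in the controls were -0.064 for *Plau* and 0.30 for *Mmrn2*.

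Leaving out each library in turn gave 0 to 2 lower genes at Day 3 (0 without control replicate 1 of that day), 0 to 1 higher and 1 to 5 lower at Day 7 (1 without *Sox17*-*Erg* replicate 1, 5 without replicate 2), and 0 to 1 higher at 4 weeks (0 without control replicate 1). Over time it gave 1 to 4 higher in the controls (1 without control replicate 1 of Day 3), 0 to 2 higher with *Sox17*-*Erg* (0 without its replicate 1 of Day 3) and 1 to 2 lower (1 without control replicate 2 of Day 3), and 0 to 2 in the interaction of 4 weeks and Day 3 (2 without *Sox17*-*Erg* replicate 1 of Day 7, *F3* and *Plat*). The log2 fold change then ran from -0.68 to 0.81 for *Vwf* and -0.11 to 2.41 for *Mmrn2* at Day 3. At Day 7 it ran from -1.04 to 2.79 for *Vwf*, -0.053 to 0.44 for *Thbd* and -0.93 to 1.38 for *Mmrn2*, and at 4 weeks from -0.19 to 0.84 for *Mmrn2*. Over time in the controls it ran from -0.090 to 0.46 for *Procr*, -0.064 to 0.47 for *Plau* and -2.23 to 0.30 for *Mmrn2*, and with *Sox17*-*Erg* from -0.75 to 0.030 for *Plau*. With 2 libraries per group, and 10 to 81 counts of *Mmrn2* and 19 to 283 counts of *Vwf* in each library of Day 3 and Day 7, small changes of these genes were not detectable.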
